A study of Mus musculus with 6 samples.

Results

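Efferocytosis, the uptake of dying cells by phagocytes, was followed through 10 genes in adipose tissue macrophages of mice fed a high-fat diet (HFD). These genes encode the receptors Mertk, Axl and Tyro3, the ligands Gas6, Pros1 and Mfge8, the integrin subunits Itgav and Itgb5, the receptor Lrp1 and the engulfment protein Elmo1. They were picked by symbol, and each symbol matched 1 of the 57180 Ensembl gene IDs in the table. RNA sequencing had been done on 3 libraries labelled HFD+MGIG and 3 labelled HFD, all of genotype WT and all from white adipose tissue. MGIG is magnesium isoglycyrrhizinate, a drug derived from licorice root, and according to the series text the macrophages were sorted by F4/80 and CD11b. Both groups received the high-fat diet, so no lean group enters these comparisons. The labels name no strain, sex, age, dose, duration or batch, and they do not say whether a library is 1 animal or a pool. The p-values below therefore measure only the spread between libraries, which may be technical.

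Dying cells expose phosphatidylserine on their surface. Gas6 and Pros1 bind that lipid with one end and a TAM receptor (Tyro3, Axl or Mertk) with the other, and the receptor's kinase then drives uptake and dampens inflammatory signalling. Mfge8 bridges the same lipid to integrins that contain the alpha-v subunit, such as the pair of Itgav and Itgb5. Lrp1 is a large endocytic receptor that recognises calreticulin on dying cells, and Elmo1 works with Dock proteins to activate the GTPase Rac1, which reshapes actin around the corpse. In obese fat, macrophages gather around dying adipocytes, and Mertk is widely used as a marker of tissue macrophages.

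The libraries differed in depth and makeup along with treatment. Total counts were 2214456 to 4904302 in HFD+MGIG and 14437605 to 16740417 in HFD. Olfactory, vomeronasal and taste receptor, keratin-associated and beta-defensin genes, taken here as silent in macrophages, held 2.94% to 6.42% of counts in HFD+MGIG and 0.0624% to 0.280% in HFD. HFD+MGIG 2 was the shallowest library and had the highest share. From these 1598 silent-family genes a background bound was set for every gene and library, namely the 90th percentile of their counts per kb multiplied by the gene's exon length. The groups do not overlap in depth or background, so treatment and library makeup cannot be told apart. All 18 macrophage markers on the list used here were detected in both groups, and edgeR called 0 of them over all genes that passed a low-count filter. At an unadjusted p under 0.05, 2 of the 18 were lower, DESeq2 called 4 lower and limma voom 7 lower. Adgre1, which encodes F4/80, had 387, 135 and 327 CPM (counts scaled by the library total) in HFD+MGIG, against 468, 530 and 546 CPM in HFD. Itgam, which encodes CD11b, had 167, 38.8 and 144 CPM in HFD+MGIG, against 199.6, 219.6 and 316 CPM in HFD. HFD+MGIG 2 was lowest for both sort markers, so the results below are also given without it where that matters.

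Scaled for length, the ligands led and Tyro3 came last. Mean levels in HFD+MGIG were 92.5 CPM per kb of exon for Gas6, 56.2 for Pros1, 26.2 for Mfge8, 23.9 for Mertk, 14.9 for Axl, 8.22 for Itgb5, 5.92 for Elmo1, 3.55 for Lrp1, 2.31 for Itgav and 0.375 for Tyro3. In HFD the same genes had 160.0, 100.2, 65.5, 39.3, 37.05, 20.7, 8.73, 6.55, 4.10 and 0.301 CPM per kb. The rank order of the 10 mean levels was identical in both groups. Neighbours in HFD were separated beyond their spread except for Mertk and Axl, and Elmo1 and Lrp1, whose values overlapped. In HFD+MGIG the values of most neighbours overlapped, the exceptions being Elmo1 above Lrp1 and Itgav above Tyro3. Those 4 genes had HFD+MGIG means below their mean background bounds, so their order there was not detectable above background. Within single libraries the order of neighbours held in all 3 HFD+MGIG libraries, except for Mfge8 above Mertk, which held in 2. The exon lengths, 2548 bases for Gas6 and up to 17717 bases for Lrp1, are unions over annotated transcripts, so the levels of genes with long alternative exons are understated.

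**Figure D1:**
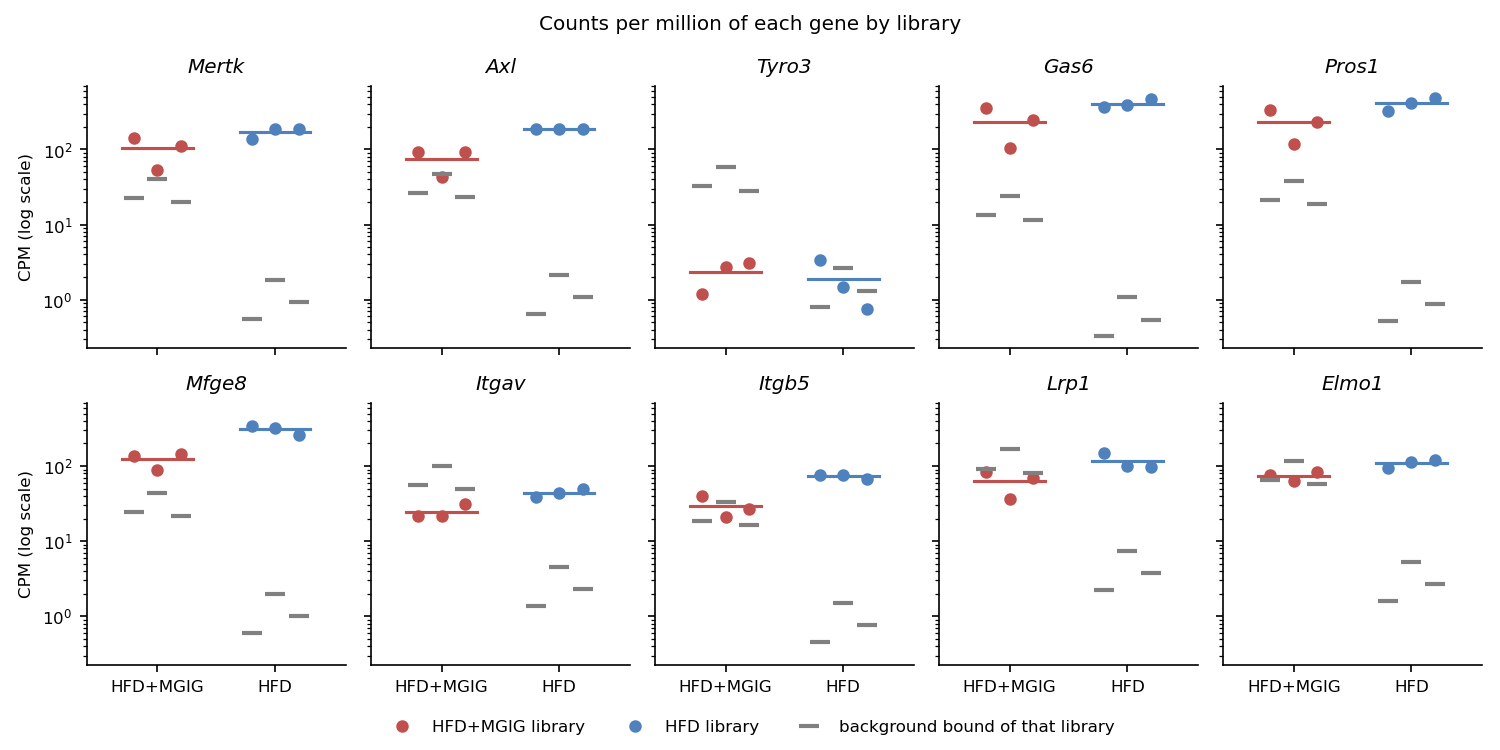
CPM (log scale) of the 10 genes in each HFD+MGIG and HFD library, with group means as lines and the background bound of each library as grey ticks. The groups do not overlap for Axl, Gas6, Mfge8, Itgav, Itgb5, Lrp1 and Elmo1. All HFD+MGIG points of Tyro3, Itgav and Lrp1 lie below their bounds, as do those of Axl, Itgb5 and Elmo1 in HFD+MGIG 2.

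The promoters of 4 of these genes are shown. Axl, Mfge8 and Itgb5 are the members called lower in both fits described next, and Mertk is the receptor Axl is set against. Each run holds the 250 bases before the RefSeq start site (build GRCm38.p6), read 5′ to 3′ on the gene's own strand: chr7:25788734-25788983, minus strand, for Axl, chr7:79149061-79149310, minus strand, for Mfge8, chr16:33829415-33829664, plus strand, for Itgb5, and chr2:128698665-128698914, plus strand, for Mertk. Capitals mark matches on either strand to the GC box GGGCGG, the core letters bound by Sp1-type factors.
Axl: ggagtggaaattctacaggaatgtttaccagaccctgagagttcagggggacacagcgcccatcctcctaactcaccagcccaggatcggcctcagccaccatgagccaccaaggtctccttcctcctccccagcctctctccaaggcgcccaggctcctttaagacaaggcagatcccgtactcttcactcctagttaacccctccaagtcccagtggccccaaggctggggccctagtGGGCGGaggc
Mfge8: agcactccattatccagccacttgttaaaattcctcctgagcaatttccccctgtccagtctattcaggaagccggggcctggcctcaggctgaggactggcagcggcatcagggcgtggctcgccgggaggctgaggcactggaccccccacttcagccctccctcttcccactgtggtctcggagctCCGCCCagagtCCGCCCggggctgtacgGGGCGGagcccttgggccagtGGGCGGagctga
Itgb5: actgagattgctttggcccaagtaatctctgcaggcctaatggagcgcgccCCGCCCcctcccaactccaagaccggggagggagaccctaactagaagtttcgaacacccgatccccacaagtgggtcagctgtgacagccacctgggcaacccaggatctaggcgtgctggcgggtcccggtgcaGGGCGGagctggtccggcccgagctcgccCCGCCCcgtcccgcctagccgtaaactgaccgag
Mertk: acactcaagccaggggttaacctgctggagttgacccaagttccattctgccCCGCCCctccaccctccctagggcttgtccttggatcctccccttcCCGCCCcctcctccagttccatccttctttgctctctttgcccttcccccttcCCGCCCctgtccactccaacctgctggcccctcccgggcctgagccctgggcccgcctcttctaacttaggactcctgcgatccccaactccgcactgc
The GC box was found 1 time in the Axl window, 4 times in Mfge8, 3 times in Itgb5 and 3 times in Mertk. Among the 10 genes, all of which had a RefSeq entry, 9 held it in at least 1 window, and it occurred in 32.7% of all 32851 windows of that length. The letters TGANTCA of the AP-1 motif were in none of the members' windows and in 6.75% of all windows. The PU.1 letters GAGGAAGT, which share no stretch with the GC box, were found upstream of Itgav alone and in 2.44% of all windows. TATAAA occurred in 1 of the Elmo1 windows and in 12.4% of all windows. All searches covered both strands, and a match describes the letters only.

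Most of the genes had lower levels in the HFD+MGIG libraries, and 3 of them, Axl, Mfge8 and Itgb5, were called lower in both fits used. Axl and Itgb5 entered the second fit, described below, through their HFD levels. Both fits also use the counts of the same 6 libraries, so the second call is separate support for none of these 3 genes. Mean CPM was lower in HFD+MGIG for 9 of 10 genes, Tyro3 being the exception, and for 7 the groups did not overlap. Groups did not overlap with HFD+MGIG lower for 23.7% of all 23055 genes that passed the low-count filter, and 68.1% of the 2606 background-limited genes, and with HFD+MGIG higher for 48.9% and 2.72%. Background-limited genes are protein-coding genes outside the silent families with at least 2 exon blocks whose mean bound is at most 0.25 of their mean CPM over the 6 libraries. All 10 members passed the filter. In bulk RNA, fewer cells of a type and less RNA per cell cannot be told apart. In edgeR's quasi-likelihood test on the whole filtered table (the whole-table fit), 6 of 10 fell and 0 rose at an adjusted p under 0.05: Axl, Mfge8, Itgav, Itgb5, Lrp1 and Elmo1. In that fit 17.8% of all genes were called lower and 42.9% higher, 60.8% in all. Among protein-coding genes outside the silent families 26.8% were called lower and 21.0% higher, and among the background-limited genes 43.1% lower and 2.11% higher. Fold changes in that fit are best read against the median of the background-limited genes, a log2 fold change of −0.91, since the median of all filtered genes was 0.38. The members' median was −1.12.

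The second fit, called the background-limited fit, kept the 2606 background-limited genes alone and scaled them on their own. It held 6 members, Mertk, Axl, Gas6, Pros1, Mfge8 and Itgb5, of which 3 fell and 0 rose, against 6.25% lower and 4.45% higher over the set, 10.7% in all. At an unadjusted p under 0.05, 0 members were higher in either fit, and DESeq2 and limma voom called 0 higher. The members' median log2 fold change there was −0.42, and that of the set was 0.03. The set is chosen on the mean over both groups, so a gene high in HFD can enter through that group. In HFD+MGIG alone the mean bound was 77.9% of mean CPM for Itgb5, 42.8% for Axl, 26.8% for Mertk and 24.4% for Mfge8, so Itgb5, Axl and Mertk entered through their HFD levels. The share of members called in the set is therefore a description. Tyro3, Itgav, Lrp1 and Elmo1 did not enter, with bounds at 984%, 104%, 65.9% and 45.4% of their mean CPM over the 6 libraries.

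**Figure D2:**
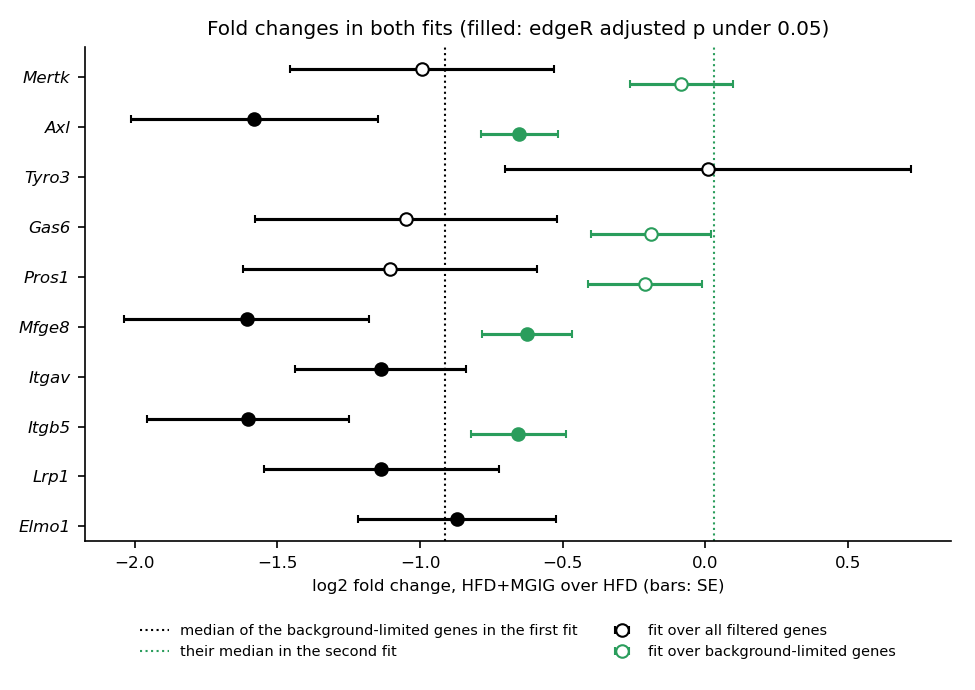
Log2 fold changes (HFD+MGIG over HFD) with SE from the whole-table fit (all filtered genes) and from the background-limited fit, with filled points for an adjusted p under 0.05. Axl, Mfge8 and Itgb5 lie left of the median line in both fits, while Mertk, Gas6 and Pros1 lie close to it.

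Among the TAM receptors, Axl fell and Mertk did not pass the test. Axl (ENSMUSG00000002602; mm10 chromosome 7, 25757273 to 25788705, minus strand) had 91.8, 42.4 and 91.3 CPM in HFD+MGIG, against 187, 187 and 186 CPM in HFD. Every HFD+MGIG library lay below every HFD library. The log2 fold change was −1.58 (SE 0.432, adjusted p = 0.00742, edgeR) in the whole-table fit, and −0.65 (SE 0.134, adjusted p = 0.0197, edgeR) in the background-limited fit. Without HFD+MGIG 2, where Axl was below its bound of 47.3 CPM, the second value was −0.58 (adjusted p = 0.0168, edgeR). Each of HFD 1, HFD 2, HFD 3 and HFD+MGIG 1, when omitted, took that call away (adjusted p = 0.0604, 0.0842, 0.0715 and 0.0591, edgeR).

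Mertk (ENSMUSG00000014361; mm10 chromosome 2, 128698956 to 128802894, plus strand) had 144, 53.7 and 113 CPM in HFD+MGIG, against 138, 189 and 185 CPM in HFD. HFD+MGIG 1 exceeded HFD 1, so the groups overlapped. Its log2 fold change was −0.99 (SE 0.463, adjusted p = 0.0782, edgeR) in the whole-table fit, a difference of −0.08 from the median of the background-limited genes. In the second fit Mertk had −0.08 (SE 0.180, adjusted p = 0.795, edgeR). In the whole-table fit it was called lower without HFD+MGIG 1, with a larger change of −1.38 (adjusted p = 0.0294, edgeR), and without HFD+MGIG 2, with a smaller one of −0.66 (adjusted p = 0.0250, edgeR). It was also called with no filter (0.0485), by DESeq2 (0.0487) and by limma voom (0.00403).

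Tyro3, the member of the receptor family best known from brain and testis, was near the limit of detection. Its counts were 5, 6 and 15 in HFD+MGIG, against 57, 21 and 12 in HFD. That is 1.20, 2.71 and 3.06 CPM in HFD+MGIG, against 3.40, 1.45 and 0.745 CPM in HFD. All HFD+MGIG values lay far below the bounds of 28.4 to 58.3 CPM, and only HFD 1 exceeded its own bound, of 0.789 CPM. No direction can be read for Tyro3 (log2 fold change 0.01, SE 0.712, adjusted p = 0.989, edgeR).

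The balance between Axl and Mertk was also read as a share within each library, which no library scaling changes. Axl made up 35.3%, 39.7% and 40.7% of the summed level of Mertk, Axl and Tyro3 per kb in HFD+MGIG, against 53.5%, 45.9% and 46.3% in HFD. Mertk made up 64.4%, 58.3% and 58.2% in HFD+MGIG, against 45.7%, 53.8% and 53.6% in HFD. The Axl share averaged 38.5% ± 2.87 in HFD+MGIG and 48.5% ± 4.29 in HFD (SD, n = 3 each), a difference of −10.0 percentage points. The two-sided exact permutation p was 0.1 for both shares, the smallest that 3 against 3 libraries allow (0.167 adjusted over 15 within-library ratios by Benjamini-Hochberg). In each of the 3 HFD+MGIG libraries Mertk was the more abundant receptor per kb, and so it was in 2 of the 3 HFD libraries. With the median silent-family background subtracted the Axl difference was −11.0 percentage points, and without single libraries it ranged from −11.3 to −7.54. Tyro3 held 0.376% to 2.06% of the sum in HFD+MGIG and 0.151% to 0.790% in HFD.

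**Figure D3:**
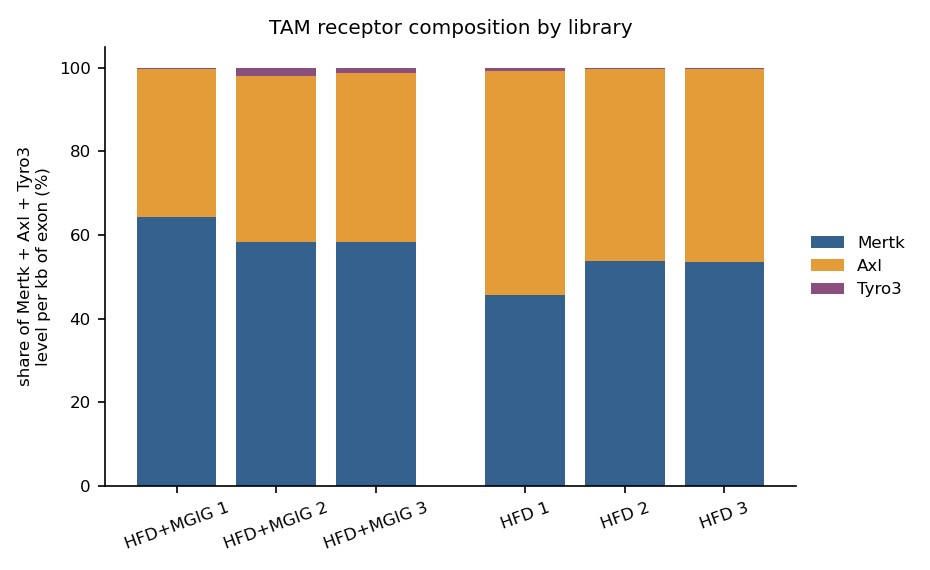
Share of each TAM receptor in the summed level per kb of exon of Mertk, Axl and Tyro3, as stacked bars for the 3 HFD+MGIG and 3 HFD libraries. The Axl segment spans 35.3% to 40.7% in HFD+MGIG and 45.9% to 53.5% in HFD.

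The TAM ligands were the most abundant members, and neither passed the test. Gas6 (ENSMUSG00000031451; mm10 chromosome 8, 13465374 to 13494490, minus strand), the vitamin K-dependent ligand that binds all TAM receptors, had 356, 104 and 247 CPM in HFD+MGIG, against 368, 388 and 467 CPM in HFD. The groups did not overlap, with HFD+MGIG 1 close to HFD 1. Pros1 (ENSMUSG00000022912; mm10 chromosome 16, 62854307 to 62929346, plus strand), the anticoagulant protein S that binds Mertk and Tyro3, had 339, 117 and 233 CPM in HFD+MGIG, against 327, 416 and 486 CPM in HFD. Here HFD+MGIG 1 exceeded HFD 1. The log2 fold changes were −1.05 for Gas6 (SE 0.529, adjusted p = 0.0992, edgeR) and −1.10 for Pros1 (SE 0.515, adjusted p = 0.0782, edgeR) in the whole-table fit. In the background-limited fit they were −0.19 for Gas6 (SE 0.210, adjusted p = 0.599, edgeR) and −0.21 for Pros1 (SE 0.2004, adjusted p = 0.541, edgeR). Without HFD+MGIG 1 the changes of Gas6 and Pros1 in the whole-table fit grew to −1.56 and −1.58, and both were called lower (adjusted p = 0.0313 and 0.0263, edgeR). Without HFD+MGIG 2 they shrank to −0.68 and −0.77 and were also called (adjusted p = 0.0228 and 0.0207, edgeR). Limma voom called both (adjusted p = 0.00339 and 0.00178). DESeq2 called Pros1 alone (adjusted p = 0.0323, against 0.0547 for Gas6). The ratio of Gas6 to Pros1 per kb was nearly constant, with log2 values of 0.75, 0.51 and 0.76 in HFD+MGIG, against 0.85, 0.58 and 0.63 in HFD (difference −0.01, two-sided exact permutation p = 1). Both ligands exceeded their bounds in every library, by 3.04 times or more.

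Mfge8 and the integrin subunit Itgb5 were called lower in both fits, and the subunit Itgav in the whole-table fit alone. Mfge8 (ENSMUSG00000030605; mm10 chromosome 7, 79133768 to 79149060, minus strand), a secreted bridge between phosphatidylserine and alpha-v integrins, had 137, 88.1 and 145 CPM in HFD+MGIG, against 342, 325 and 256 CPM in HFD. Itgb5 (ENSMUSG00000022817; mm10 chromosome 16, 33829665 to 33949338, plus strand), the beta-5 subunit that pairs with alpha-v, had 39.8, 20.8 and 27.1 CPM in HFD+MGIG, against 75.5, 76.7 and 68.0 CPM in HFD. For both genes every HFD+MGIG library lay below every HFD library. In the whole-table fit the log2 fold change of Mfge8 was −1.61 (SE 0.429, adjusted p = 0.00641, edgeR) and that of Itgb5 −1.60 (SE 0.354, adjusted p = 0.00196, edgeR). In the background-limited fit they were −0.62 for Mfge8 (SE 0.157, adjusted p = 0.0399, edgeR) and −0.66 for Itgb5 (SE 0.166, adjusted p = 0.0408, edgeR). On that scale Mfge8 missed the threshold when HFD 1, HFD 2, HFD+MGIG 1 and HFD+MGIG 3 were omitted in turn (adjusted p = 0.129, 0.151, 0.122 and 0.0831, edgeR) and with the median background subtracted (0.0657). Itgb5 was called there without HFD+MGIG 2 (adjusted p = 0.0328, edgeR), and the omission of each of the other 5 libraries removed the call (0.0698 to 0.160). In HFD+MGIG 2 Itgb5 was below its bound of 33.4 CPM.

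Itgav (ENSMUSG00000027087; mm10 chromosome 2, 83724397 to 83806916, plus strand), the alpha-v subunit shared by several integrins, had 21.7, 21.7 and 31.0 CPM in HFD+MGIG, against 38.9, 44.4 and 48.9 CPM in HFD. The groups did not overlap, and the log2 fold change was −1.14 (SE 0.300, adjusted p = 0.00603, edgeR) in the whole-table fit. That was a difference of −0.22 from the median of the background-limited genes, against −0.69 for both Mfge8 and Itgb5. In each HFD+MGIG library, however, Itgav lay below its bound of 49.1 to 101 CPM, so its level there was not detectable above that bound. Its exons overlap the noncoding gene Gm13684 on the opposite strand over 634 of 10744 bases, and the counts are not stated to use strand. The log2 ratio of Itgb5 to Itgav per kb averaged 1.80 ± 0.579 in HFD+MGIG and 2.34 ± 0.245 in HFD (SD, n = 3 each; two-sided exact permutation p = 0.3).

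Lrp1 and Elmo1 passed the test in the whole-table fit, with HFD+MGIG levels close to or below the background bound. In HFD they stood at 13.6 to 66.1 times the bound for Lrp1 and 21.7 to 59.5 times for Elmo1. Lrp1 (ENSMUSG00000040249; mm10 chromosome 10, 127538161 to 127621148, minus strand) had 83.6, 36.1 and 69.1 CPM in HFD+MGIG, against 149, 101 and 98.0 CPM in HFD. HFD 1 stood above the other 2 HFD libraries. Its log2 fold change was −1.14 (SE 0.413, adjusted p = 0.0310, edgeR). The call was lost without HFD 1 (adjusted p = 0.0869, edgeR), HFD 3 (0.0551) or HFD+MGIG 3 (0.0968), and with a minimum of 5 CPM in 3 libraries (0.0862). Each HFD+MGIG value was below its bound of 81.04 to 167 CPM.

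Elmo1 (ENSMUSG00000041112; mm10 chromosome 13, 20090596 to 20608353, plus strand) had 76.9, 64.1 and 82.4 CPM in HFD+MGIG, against 95.2, 115 and 119.6 CPM in HFD. The groups did not overlap. Its log2 fold change of −0.87 (SE 0.347, adjusted p = 0.0448, edgeR) was 0.04 above the median of the background-limited genes, and 5 of the 6 omissions of a library removed the call (adjusted p up to 0.144, edgeR). So did library totals (0.0811), no filter (0.0541), the 5 CPM minimum (0.130) and the replicate number as a block (0.0982; edgeR adjusted p throughout). HFD+MGIG 2 was below its bound of 118 CPM, and 403 of the 12580 exon bases overlap the antisense gene Gm32036.

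Set against the summed counts of the 18 macrophage markers in the same library, 9 of 10 members were lower on average in HFD+MGIG, and for 7 the groups did not overlap. On the same ratio the groups did not overlap with HFD+MGIG lower for 9.75% of all filtered genes and 34.3% of the background-limited genes, and with HFD+MGIG higher for 50.0% and 4.3%. Axl had log2 ratios of −7.78, −7.55 and −7.57 in HFD+MGIG, against −6.64, −6.69 and −6.81 in HFD, a difference of −0.92. For Mfge8 the difference was −0.87 and for Itgb5 −0.90, followed by −0.49 for Gas6, −0.48 for Pros1, −0.47 for Lrp1 and −0.35 for Mertk. The two-sided exact permutation p was 0.1 for each of these 7, the smallest possible (0.167 adjusted over the 15 ratios). Without HFD 1 the Lrp1 difference was −0.24. Itgav, Elmo1 and Tyro3 had differences of −0.37, −0.09 and 1.01, with overlapping groups. Without HFD+MGIG 2 the Itgav difference was −0.70 and that of Elmo1 −0.40, whereas without HFD+MGIG 1 they were −0.02 and 0.14. These small differences also depended on background. With the median silent-family background subtracted they were −3.34 for Itgav, −0.60 for Elmo1 and −2.68 for Tyro3, and that of Lrp1 was −3.25. The two-sided exact permutation p was 0.1 for each. Itgav then had no counts in HFD+MGIG 2. The choice of marker decided the sign for several genes. With Adgre1 alone as denominator, Axl (−0.40), Mfge8 (−0.35) and Itgb5 (−0.37) stayed below 0, whereas Mertk (0.18), Gas6 (0.04), Pros1 (0.05), Itgav (0.16), Lrp1 (0.06), Elmo1 (0.44) and Tyro3 (1.54) were above it. The two-sided exact permutation p was then 0.1 for Axl, 0.4 for Mfge8 and 0.3 for Itgb5, so the groups overlapped for Mfge8 and Itgb5. Of the 17 markers in the background-limited fit, edgeR called 0, 6 were higher at an unadjusted p under 0.05, DESeq2 called 2 higher and limma voom 7 higher.

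**Figure D4:**
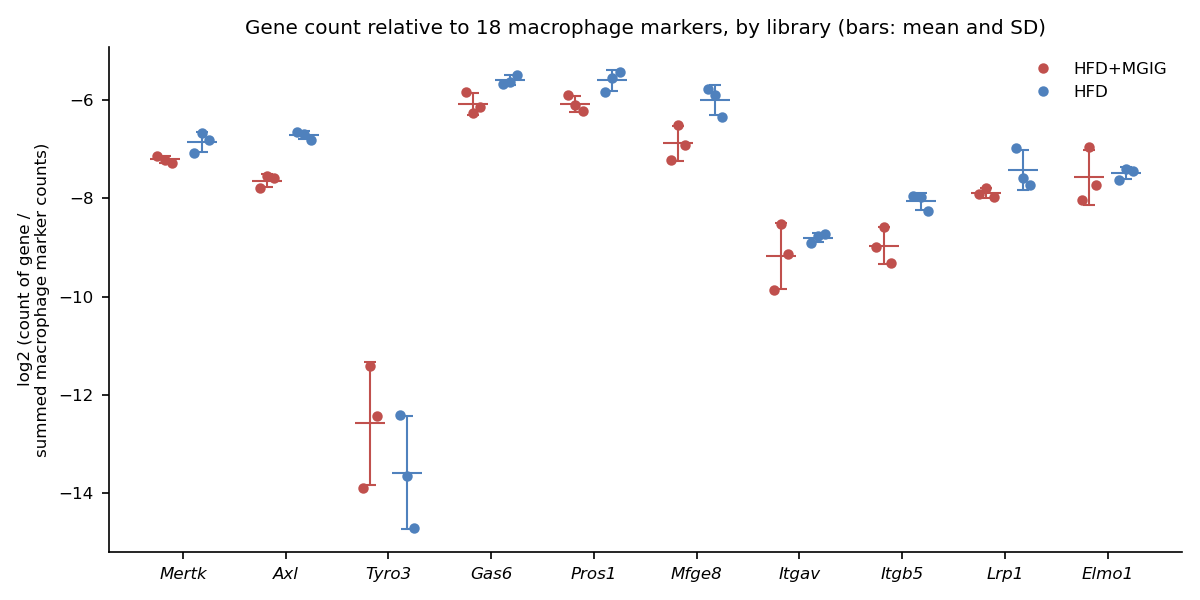
Log2 of each gene's count over the summed counts of 18 macrophage markers in the same library, with mean and SD of the 3 HFD+MGIG and 3 HFD libraries. Axl, Mfge8 and Itgb5 lie lower in HFD+MGIG by −0.92, −0.87 and −0.90 with no overlap, and the values of Tyro3, Itgav and Elmo1 overlap.

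Markers of other cells moved with these results. Endothelial, mural and fibroblastic cells are known to express members such as Axl, Gas6, Mfge8 and Lrp1. Of 17 endothelial markers 16 fell and 0 rose in the whole-table fit, and 8 of 9 fell in the background-limited fit. Background-limited counts were smaller for the other stromal lists, with 3 of 8 fibroblast, 1 of 5 adipocyte and 1 of 4 pericyte and smooth muscle markers called lower and 0 higher by edgeR. For adipocyte markers DESeq2 called 3 of these 5 lower and limma voom 0. Of the 8 fibroblast markers DESeq2 and limma voom each called 3 lower and 1 higher, and 1 was higher at an unadjusted p under 0.05 by edgeR. Among 2 epidermal markers edgeR called 0, both were lower at an unadjusted p under 0.05, DESeq2 called 2 lower and limma voom 0. For 2 dendritic cell and 4 neutrophil markers edgeR, DESeq2 and limma voom called 0, and 0 passed an unadjusted p of 0.05 by edgeR. The summed endothelial level was 669 to 1278 CPM in HFD+MGIG and 3189 to 3618 CPM in HFD. Of 12 pericyte and smooth muscle markers 10 fell and 0 rose (536 to 916 CPM in HFD+MGIG, 1461 to 2150 CPM in HFD), and of 13 fibroblast markers 6 fell and 0 rose (2711 to 4520 CPM in HFD+MGIG, 5495 to 9197 CPM in HFD). Among 12 adipocyte markers 10 fell and 0 rose (1704 to 2529 CPM in HFD+MGIG and 4023 to 6489 CPM in HFD). The summed macrophage marker levels of the groups overlapped, at 7986 to 20237 CPM in HFD+MGIG and 18649 to 20773 CPM in HFD. Epidermal markers fell for 7 of 10 and rose for 0 (41.6 to 68.2 CPM in HFD+MGIG, 102 to 555 CPM in HFD), and dendritic cell markers fell for 3 and rose for 2 of 12 (443 to 524 CPM in HFD+MGIG, 589 to 724 CPM in HFD). T and B cell markers fell for 2 and rose for 3 of 13 (70.8 to 211 CPM in HFD+MGIG, 61.6 to 96.4 CPM in HFD), and neutrophil markers fell for 0 and rose for 1 of 9 tested (156 to 281 CPM in HFD+MGIG, 169 to 223 CPM in HFD). No marker on these lists was at 0 in all 3 libraries of a group. Many HFD+MGIG means, however, were at or below their mean bounds. These were 11 of 13 T and B cell, 10 of 10 epidermal, 7 of 12 dendritic cell and 7 of 12 neutrophil markers. So were 8 of 17 endothelial, 8 of 12 pericyte and smooth muscle, 6 of 12 adipocyte, 3 of 13 fibroblast and 0 of 18 macrophage markers. The HFD+MGIG sums and rises of such markers are not detectable above background. The part of the endothelial, mural, fibroblast and adipocyte differences in the lower Axl, Mfge8 and Itgb5 levels was not tested.

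Of 19 genes for TAM regulation, shedding and ligand processing, 13 fell and 0 rose in the whole-table fit (median log2 fold change −1.08). Among the 10 that were background-limited, 1 fell and 0 rose (median −0.31). That gene was Socs3, a suppressor of cytokine signalling known as a TAM target, with 186, 70.4 and 137 CPM in HFD+MGIG, against 450.3, 359 and 342 CPM in HFD (−0.91 on the background-limited scale, adjusted p = 0.0135, edgeR). Klf2, a transcription factor among the abundant genes of the list, averaged 194 ± 80.7 CPM in HFD+MGIG and 387 ± 46.6 CPM in HFD (SD, n = 3 each). It had −1.27 in the whole-table fit (adjusted p = 0.0397, edgeR) and −0.36 on the background-limited scale (adjusted p = 0.184, edgeR).

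Of 20 tested apoptotic cell receptors outside the 10 genes, 6 fell and 1 rose in the whole-table fit (median −0.68), and of 9 background-limited ones 1 fell and 1 rose (median −0.23). Scarb1, the HDL receptor that also binds phosphatidylserine, had 80.0, 36.6 and 72.2 CPM in HFD+MGIG, against 202, 194 and 186 CPM in HFD (−0.96 on the background-limited scale, SE 0.129, adjusted p = 0.00687, edgeR). Its mean of 62.9 CPM in HFD+MGIG was close to its mean bound there of 54.4 CPM, so Scarb1 entered the set through its HFD level. Msr1, the class A scavenger receptor, had 184, 66.4 and 160.5 CPM in HFD+MGIG, against 119.8, 134 and 148 CPM in HFD. It rose on the background-limited scale (0.66, SE 0.172, adjusted p = 0.0441, edgeR), but had −0.23 in the whole-table fit (adjusted p = 0.660, edgeR), so its direction depended on the scale. Cd36 and Cd14, the most abundant receptors, averaged 2790 ± 1089 and 648 ± 266 CPM in HFD+MGIG and 5440 ± 452 and 904 ± 96.2 CPM in HFD, and neither passed the test (adjusted p = 0.0795 and 0.218 in the whole-table fit, edgeR). The gene that rose in the whole-table fit was Megf10, named after its value was seen, at 4.21 CPM in HFD+MGIG below a bound of 49.4 CPM.

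Of 17 tested bridging molecules and partners, 6 fell and 2 rose in the whole-table fit (median −0.94), and of 13 background-limited ones edgeR called 1 lower and 0 higher (median −0.02). Of these 13, 3 were higher at an unadjusted p under 0.05 by edgeR, DESeq2 called 1 higher and limma voom 4. Thbs1, thrombospondin, a bridge to Cd36 and alpha-v integrins, had 258, 84.0 and 227 CPM in HFD+MGIG, against 729.7, 837 and 874 CPM in HFD (−1.49 on the background-limited scale, adjusted p = 0.00687, edgeR). Apoe, the lipid carrier, averaged 6151 ± 2797 CPM in HFD+MGIG and 5973 ± 955 CPM in HFD. C1qb, a chain of complement C1q, averaged 1403 ± 602 CPM in HFD+MGIG and 1574 ± 100.5 CPM in HFD, and neither passed edgeR's test in either fit. The 2 that rose, Edil3, a homologue of Mfge8, and A2m, a ligand of Lrp1, were named after their values were seen. In HFD+MGIG they averaged 47.3 and 4.87 CPM, below bounds of 87.6 and 45.0 CPM.

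Integrin partners and adaptors of the alpha-v subunit fell for 7 and rose for 2 of 12 in the whole-table fit (median −1.26), and for 1 of 4 background-limited genes. Itgb1, the beta-1 subunit, had 455, 161 and 335 CPM in HFD+MGIG, against 837, 933 and 937 CPM in HFD (−0.89 on the background-limited scale, SE 0.169, adjusted p = 0.0145, edgeR). Ilk, an integrin-linked kinase, had −1.30 in the whole-table fit (adjusted p = 0.0227, edgeR) and −0.37 on the background-limited scale (adjusted p = 0.114, edgeR). Itgb6 and Itgb8, named after their values were seen, rose in the whole-table fit, but at 13.96 and 33.7 CPM they were below their HFD+MGIG bounds of 45.5 and 70.8 CPM.

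Of 25 engulfment effectors 11 fell and 0 rose in the whole-table fit (median −1.01), and among 12 background-limited ones 0 were called by edgeR, DESeq2 or limma voom, and 3 were lower at an unadjusted p under 0.05 by edgeR (median −0.17). On the whole filtered table limma voom called 5 of the 25 higher and DESeq2 3. The GTPases Cdc42 and Rac1 had −0.07 and −0.31 on the background-limited scale (adjusted p = 0.737 and 0.180, edgeR). Of 23 genes of LC3-associated phagocytosis and corpse digestion, 6 fell and 0 rose in the whole-table fit (median −0.85), and of 14 background-limited ones 0 fell and 1 rose (median 0.04). The riser was Ctsl, cathepsin L, with 636, 373 and 443 CPM in HFD+MGIG, against 468, 423 and 429.9 CPM in HFD. It had 0.84 on the background-limited scale (adjusted p = 0.0145, edgeR) and −0.15 in the whole-table fit (adjusted p = 0.779, edgeR), so its direction too depended on the scale. Lamp1 and Ucp2, the most abundant of that list, had 0.03 and 0.04 on the background-limited scale (adjusted p = 0.942 and 0.915, edgeR).

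Of 21 tested find-me and do-not-eat-me genes, 11 fell and 0 rose in the whole-table fit (median −0.99), and 2 of 9 background-limited ones fell. These were Pecam1, an adhesion molecule that is also an endothelial marker (150.4 ± 68.9 CPM in HFD+MGIG and 539 ± 25.6 CPM in HFD), and S1pr1, the sphingosine-1-phosphate receptor abundant in endothelium (179 ± 71.4 CPM in HFD+MGIG and 515 ± 33.5 CPM in HFD; SD, n = 3 each). On the background-limited scale they had −1.21 and −0.88 (adjusted p = 0.00742 and 0.0106, edgeR).

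The genes whose pattern across the 6 libraries lay closest to a member were found among 2600 other background-limited genes, by the mean absolute difference in log2 CPM centred on each gene's own mean. For Axl these were Gramd1a, Sbno2 and Fosb, at differences of 0.0298, 0.0314 and 0.0472. For Mertk they were Tiparp, Agtrap and Mfsd1 (0.0501, 0.0509 and 0.0603). For Gas6 they were Irak3, Slc25a24 and Spred1 (0.0594, 0.0644 and 0.0658), and for Lrp1 Rnf7, Ndufc2 and Arf5 (0.0595, 0.0618 and 0.0759). Lrp1 lay below its bound in every HFD+MGIG library, so that part of its pattern was not detectable above the bound.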

How the data were processed

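RNA was measured in 6 libraries; per the labels' protocols, TRIzol served for extraction, and 10 ng of RNA entered a SMART-Seq v4 kit, which amplifies cDNA. The authors deposited estimated counts per gene, 33.3% to 41.8% of the detected values fractional. Per the submitters' processing notes, fastp, HISAT2, StringTie and mm10 were used, and versions, strand and the counting program were not given in the sources used here. Counts were rounded. Symbols and exon lengths came from GENCODE M21, which held 51884 of the 57180 IDs. The other 5296 IDs carry no symbol here but stayed in the fits, and 0 columns were left unused.

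Genes were tested by quasi-likelihood in edgeR 4.0.16 under R 4.3.3 (robust, TMM, filterByExpr, group as the only term) with Benjamini-Hochberg adjustment over all genes of a fit and a threshold of 0.05. The SE is the fold change divided by the root of F. DESeq2 1.42.0 and limma 3.58.1 were alternatives, and list counts by these tools were added after the data were seen. Ratios used counts plus 0.5 and exact permutation tests over libraries. Counting error is included in the spread between libraries, and 1 count was worth 0.204 to 0.452 CPM in HFD+MGIG and 0.0597 to 0.0693 CPM in HFD.

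The members, lists and tests were chosen with earlier results of these data known, and the background-limited set was defined in that earlier work. Named were all members and, per pathway list, up to 4 genes called in the background-limited fit and the 2 with the highest mean CPM; others are marked, and 1 gene that this rule names is not reported here. Of the macrophage markers, 5 also stand in a pathway list. On simulated counts with 50 genes per fold size, 4-fold increases and decreases were recovered for 46 and 46 of 50 and 2-fold ones for 9 and 7 of 50 among 23055 genes, with 20 false calls. Among 2606 genes these were 49 and 47, 46 and 45, and 11 false calls. The simulated means of both groups came from the HFD libraries, so the background of the HFD+MGIG libraries was not simulated. These numbers are therefore not error rates for the fits above. Replicate numbers did not pair the libraries: same-numbered libraries' deviations correlated at 0.05, 0.26 and 0.08, and only 1 of these is above the 0.1 required of every pair.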

Additional observations from a re-analysis of the deposited data

How the results depend on the processing

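Over all filtered genes the number of members called lower was 4 to 9 under 13 alternatives, which include leaving out each library (9 by limma voom and without HFD+MGIG 2, 4 when HFD 1, HFD 3 and HFD+MGIG 3 were omitted in turn, and 4 with a minimum of 5 CPM in 3 libraries), and 0 were called higher. Axl, Mfge8, Itgav and Itgb5 were called in all 13. Among the background-limited genes 0 to 3 members were called lower when a library was left out (0 when HFD 1, HFD 2 and HFD+MGIG 1 were omitted in turn, and 1 when HFD 3 and HFD+MGIG 3 were), 1 with the replicate block (Axl, adjusted p = 0.0452) and 1 with a bound of at most 0.1 of the mean, where Axl, Mertk and Itgb5 were no longer in the set. No other alternative moved either count by more than 1.5 times. The replicate block moved no other count of calls by over 1.5 times (9833 higher and 4312 lower over all filtered genes, 91 and 125 among background-limited genes). The numbers do not pair the libraries, and not every library correlated best with its own number.

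Over all filtered genes 9902 genes were called higher and 4113 lower. Library totals gave 2426 lower, no filter 18253 higher, a minimum of 5 CPM in 3 libraries 4582 higher and 1574 lower, limma voom 6890 lower, and leaving out a library 9645 to 12351 higher and 2122 to 5563 lower. Of the background-limited genes 116 were called higher and 163 lower. DESeq2 called 186 higher, limma voom 221 higher, a bound of at most 0.5 of the mean 226 higher, and a bound of at most 0.1 of the mean 38 higher and 68 lower. Leaving out a library gave 12 to 154 higher and 54 to 189 lower.

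Signs turned for genes near 0 or near the background. The log2 fold change of Tyro3 was −0.20 with no filter and −0.40 to 0.63 with a library left out, and fell below 0 when HFD 2 (−0.13), HFD 3 (−0.40), HFD+MGIG 2 (−0.04) and HFD+MGIG 3 (−0.31) were omitted in turn. Background-limited Mertk ranged from −0.238 to 0.0264 (0.0264 without HFD+MGIG 2). With the median background subtracted the Tyro3 share differed by −0.364 percentage points, the ratio of Gas6 to Pros1 by 0.0102, that of Tyro3 to the markers by −2.68, and that of Itgb5 to Itgav by 2.05, since Itgav then had no counts in HFD+MGIG 2. The Gas6 to Pros1 difference ranged from −0.0619 to 0.0722 with a library left out (above 0 without HFD 1 or HFD+MGIG 2), and that of Elmo1 to the markers from −0.40 to 0.14. With Adgre1 as denominator, differences were 0.18 for Mertk, 0.0412 for Gas6, 0.0516 for Pros1, 0.16 for Itgav, 0.0591 for Lrp1 and 0.44 for Elmo1. The cause of these reversals was otherwise not tested. Tyro3 had 5 to 15 counts in HFD+MGIG, all below its bound there.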
